A study of Homo sapiens with 9 samples.

Results

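The DNA replication machinery was followed through 49 human genes, chosen by name from the known roles of their products and matched by symbol to the Ensembl identifiers of an expression table of 57338 genes. The 49 genes comprise 9 origin licensing genes, 6 MCM helicase subunits, 8 helicase activation factors, 9 polymerase and primase subunits, 6 genes of the sliding clamp and its loader, 6 genes of single strand binding, ligation and DNA topology, and 5 genes of deoxynucleotide supply. All 49 were found in the table and the rule that picks them uses no measured value. By their labels the cells were HEK293T, a line derived from human embryonic kidney that divides rapidly in culture. They were transfected with an EGFP plasmid, either the empty vector or one with human protamine 1 (hPRM1) or human protamine 2 (hPRM2) joined to EGFP. Protamines are the small basic proteins that replace histones in sperm. Live cells with a high EGFP signal were sorted after 3 days. Each of the 3 conditions had 3 libraries prepared with a kit that reads the 3′ ends of polyadenylated RNA. The labels give every group the same parental line and an EGFP plasmid with transient expression, but the markers given below go against the line in the 3 libraries labelled for hPRM1. The labels give no separate culture for a replicate number, so the p-values measure only the spread between these libraries, which may be technical.

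Replication starts at origins that are bound by the origin recognition complex (ORC), onto which CDC6 and CDT1 load the ring-shaped MCM helicase while geminin (GMNN) holds CDT1 back outside the licensing period. The kinase CDC7 with its activator DBF4, together with CDC45, MCM10 and the GINS complex, turns the loaded ring into a running helicase. DNA polymerase alpha with primase then starts the strands, polymerases delta and epsilon extend them on the PCNA clamp, and the enzymes of deoxynucleotide synthesis provide the building blocks. Most of these genes are transcribed at the passage from G1 to S phase, a step controlled by the E2F transcription factors, whereas TOP2A, the topoisomerase that separates sister chromatids, peaks in G2 and mitosis.

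The sequence just upstream of these genes was searched for elements known from cell cycle promoters. RefSeq promoters were found for 43 of the 49 genes, and the 250 bases before each annotated start were searched on both strands. An E2F element, written as TTTCCCGC, TTTGGCGC, TTTCGCGC or TTTGCCGC, was present at 16 of the 43 genes (37.2%), against 3.40% of the 27305 genes with a promoter in the same collection. Overlapping E2F matches were counted as 1, and a gene counted when any of its annotated promoters held a match. The letters CCAAT, the core of the box bound by NF-Y, were found at 25 of the 43 genes (58.1%) and at 37.0% of all genes. The letters TTTGAA, the core of the cell cycle homology region (CHR) of genes transcribed late in the cycle, were found at 3 of the 43 genes (6.98%) and at 16.05% of all genes. The following 5 upstream stretches (GRCh38.p14, minus strand in each case, written 5′ to 3′ up to the base before the start) are shown because they carry the genes that the results below turn on. Capitals mark E2F elements in MCM6 (chr2:135876444-135876693), MCM7 (chr7:100101398-100101647) and LIG1 (chr19:48170345-48170594), E2F elements and CCAAT boxes in PCNA (chr20:5126623-5126872), and CCAAT boxes and TTTGAA in TOP2A (chr17:40417897-40418146), each on either strand.
MCM6: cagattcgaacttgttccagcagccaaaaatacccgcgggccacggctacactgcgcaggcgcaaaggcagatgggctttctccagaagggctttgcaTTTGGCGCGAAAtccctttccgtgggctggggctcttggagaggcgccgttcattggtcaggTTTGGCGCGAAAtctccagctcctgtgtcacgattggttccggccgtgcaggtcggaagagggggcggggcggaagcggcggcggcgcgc
MCM7: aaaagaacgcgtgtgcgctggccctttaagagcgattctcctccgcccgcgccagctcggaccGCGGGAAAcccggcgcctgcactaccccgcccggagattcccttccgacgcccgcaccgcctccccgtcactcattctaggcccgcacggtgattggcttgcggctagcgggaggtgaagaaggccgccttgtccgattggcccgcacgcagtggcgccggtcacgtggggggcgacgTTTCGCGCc
PCNA: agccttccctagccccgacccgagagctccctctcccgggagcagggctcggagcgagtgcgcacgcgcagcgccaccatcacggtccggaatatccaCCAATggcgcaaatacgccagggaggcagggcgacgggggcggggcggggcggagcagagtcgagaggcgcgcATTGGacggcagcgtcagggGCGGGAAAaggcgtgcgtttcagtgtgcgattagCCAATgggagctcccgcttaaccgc
TOP2A: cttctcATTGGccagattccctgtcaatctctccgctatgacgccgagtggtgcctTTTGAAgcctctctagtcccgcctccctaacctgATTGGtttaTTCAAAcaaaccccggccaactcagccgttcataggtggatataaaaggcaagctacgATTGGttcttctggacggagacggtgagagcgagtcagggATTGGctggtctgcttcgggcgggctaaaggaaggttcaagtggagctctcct
LIG1: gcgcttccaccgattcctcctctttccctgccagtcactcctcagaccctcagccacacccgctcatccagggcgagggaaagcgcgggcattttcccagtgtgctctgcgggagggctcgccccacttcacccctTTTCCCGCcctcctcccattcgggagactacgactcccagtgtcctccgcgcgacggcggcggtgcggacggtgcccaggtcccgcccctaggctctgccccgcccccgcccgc
Where a gene had several annotated promoters, the one with the most E2F matches was printed. The other annotated promoters of MCM7 and PCNA held 0 E2F matches. The MCM6 stretch held 2 E2F elements, each made of overlapping matches on the 2 strands, and the MCM7 stretch held 2 separate ones. PCNA had 1 E2F element among 3 CCAAT boxes, and TOP2A had 4 CCAAT boxes and 2 TTTGAA matches without an E2F element. LIG1, which later stands apart from the other genes, also had 1 E2F element.

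The depth and identity of the libraries bear on every value below. From the steps between low RPKM values, the number of reads on genes was put at 7930000 to 10790000 in the empty vector, 4210000 to 5860000 in the hPRM1-labelled libraries and 1270000 to 2650000 in hPRM2. PRM1 RNA was listed at 0 in all 9 libraries, including those labelled hPRM1, whereas PRM2 RNA was found only in the hPRM2 libraries, at 71224, 60050 and 36130 RPKM. The hPRM1 group is therefore called by its label throughout. The summed RPKM of 9 HEK293T markers was 271 to 332 in the empty vector and 109 to 214 in hPRM2, but 0.296 to 0.540 in the hPRM1-labelled libraries, where 7 of the 9 markers were at 0 in every library. In those same libraries 10 erythroid markers summed to 2061100 to 2267450 RPKM (3.09 to 18.2 in the empty vector, where 7 of them were at 0 in every library), 10 neutrophil and monocyte markers to 3632 to 4617 (40.1 to 41.3, 5 at 0), 10 lymphocyte markers to 730 to 1006 (0 in the empty vector, all 10 at 0) and 5 platelet markers to 319 to 560 (3.85 to 13.5, 3 at 0). In hPRM2 these 4 sums reached at most 16.3, 49.04, 0.406 and 2.25 RPKM. The library numbers of the 3 hPRM1-labelled libraries belong to another run of numbers than those of the other 6, so a difference of batch and one of condition cannot be told apart there. Fewer dividing cells and less replication RNA per cell cannot be told apart in such bulk samples either.

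In the empty vector libraries the replication genes were well expressed. Their median level was 60.3, 51.4 and 50.5 RPKM in replicates 1 to 3, and 48 of the 49 genes were above 0 in all 3 libraries. In the hPRM1-labelled libraries the median was 1.24, 1.20 and 0.72 RPKM, and the summed RPKM of the 49 genes was 151, 157 and 134, against 4142, 4393 and 4601 in the empty vector. In hPRM2 the median was 37.0, 22.5 and 32.3 RPKM and the sum 4492, 2134 and 3455, so that the sum in replicate 1 of hPRM2 lay within the range of the empty vector and that in replicate 2 was lowest. The depth behind a value differed accordingly. With the longest annotated transcript as gene length, at most 10 reads stood behind 21, 23 and 23 of the 49 genes in the hPRM1-labelled libraries, behind 5, 4 and 0 in hPRM2 and behind 0, 0 and 1 in the empty vector. The spread between libraries of a group, as the median SD of log2(RPKM + 1) over the 49 genes, was 0.265 in the empty vector, 0.219 in the hPRM1-labelled libraries and 0.849 in hPRM2, against that of 15517 expressed genes (0.360, 0.263 and 0.977).

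**Figure D1:**
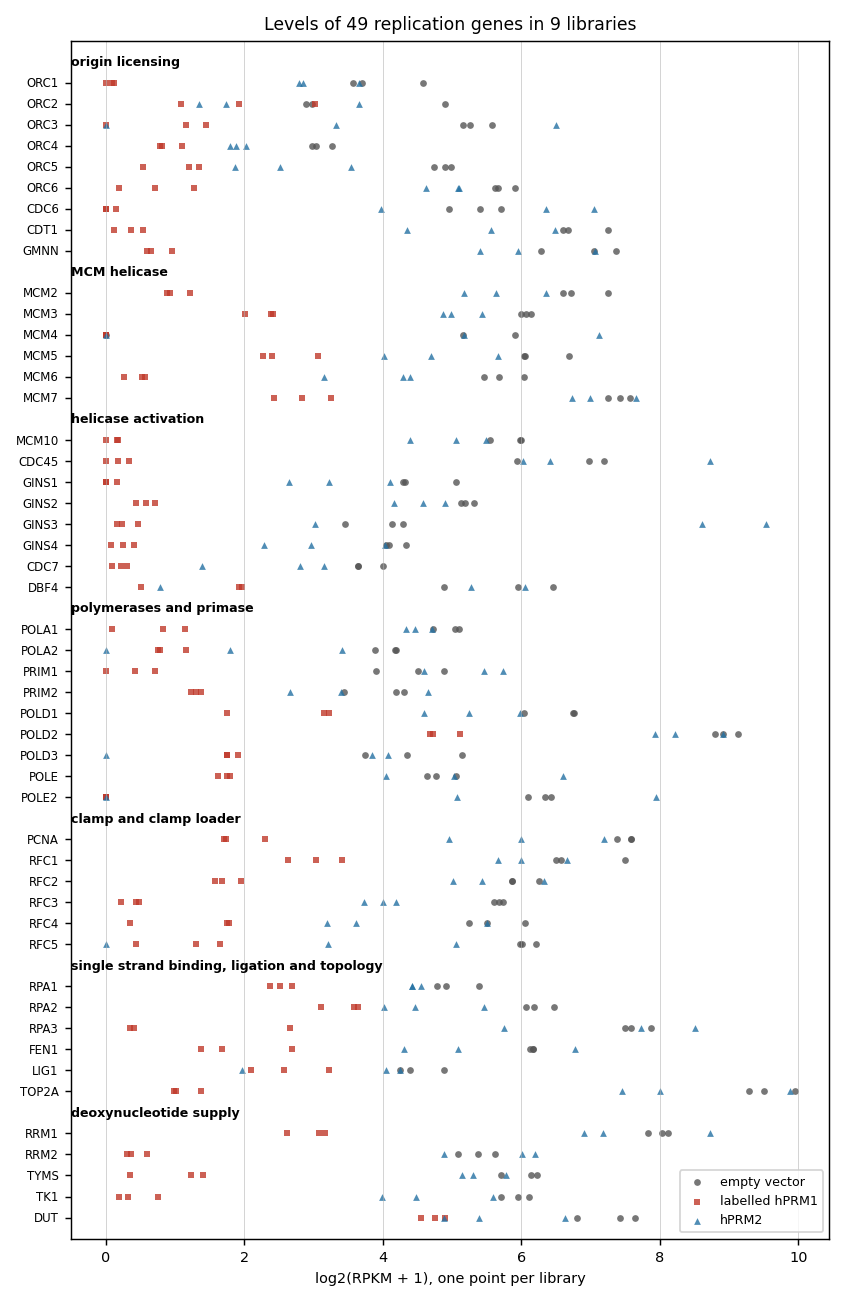
Levels of the 49 replication genes on a log2(RPKM + 1) scale, with 1 point for each of the 3 libraries of empty vector, labelled hPRM1 and hPRM2, ordered by role. For 47 of the genes all 3 hPRM1-labelled libraries lie to the left of all 3 empty vector libraries, whereas the hPRM2 points scatter around and below the empty vector.

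The first comparison asked how the replication genes differed between the hPRM1-labelled libraries and the empty vector. Of the 48 genes that passed the filter on low values (at least 1 RPKM in at least 3 of the 6 libraries), 47 were called lower and 0 higher, where a call needed an adjusted p of at most 0.05 in limma (Benjamini-Hochberg) together with a 2-fold or larger difference. Among all 13588 genes tested, 62.5% were called lower and 12.9% higher. The median log2 fold change of the replication genes was -4.29, against -1.72 over all genes tested. The 3 hPRM1-labelled libraries lay below all 3 empty vector libraries for 47 of the 48 genes, whereas this was so for 66.4% of all genes tested. The gene by gene test of the study's methods, rerun here with the filter and fold limit above, called 27 lower (27.9% of all genes). These are not the study's own calls. A gene under 1 RPKM in the hPRM1-labelled libraries needs all 3 empty vector libraries to pass the filter, and leaving out replicate 1, 2 or 3 of the empty vector left 31 replication genes to test, of which 30 were called lower each time (53.8%, 53.3% and 55.5% of all genes then tested).

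Among the origin licensing genes, 8 of 9 were called lower, with a median log2 fold change of -4.46. CDT1, the factor that brings the MCM ring to the origin, was at 96.1, 101 and 151 RPKM in the empty vector and at 0.285, 0.0794 and 0.448 in the hPRM1-labelled libraries. It had the largest change of the group on log2(RPKM + 1) (-6.50, SE 0.26, adjusted p = 4.3e-06). By the log2 ratio of mean RPKM the largest was that of CDC6 (-10.2), at 0, 0.104 and 0 RPKM (at most 0, 2 and 0 reads) in the hPRM1-labelled libraries. GMNN, the inhibitor of CDT1 and the gene of this group with the highest empty vector level, had 131, 165 and 77.2 RPKM in the empty vector and 0.506, 0.939 and 0.567 in the hPRM1-labelled libraries (-6.17, SE 0.32). CDT1 and its inhibitor were thus both under 1 RPKM in every hPRM1-labelled library. ORC2, a subunit of the recognition complex, was the only tested replication gene that was not called in this comparison. Its values were 6.89, 28.9 and 6.44 RPKM in the empty vector and 2.78, 7.13 and 1.13 in the hPRM1-labelled libraries, so that the groups overlapped (-1.58, SE 0.70, adjusted p = 0.0744), and without replicate 2 of the hPRM1-labelled libraries it was called lower (-2.09). ORC4, another subunit and the lowest gene of the group in the empty vector, had 8.61, 7.24 and 6.91 RPKM there and 0.758, 1.13 and 0.724 in the hPRM1-labelled libraries.

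All 5 tested MCM subunits were called lower. MCM2 changed most on log2(RPKM + 1), from 96.3, 105 and 152 RPKM in the empty vector to 1.32, 0.845 and 0.908 in the hPRM1-labelled libraries (log2 fold change -5.85, SE 0.25). MCM5 changed least, from 65.2, 64.5 and 102 RPKM to 3.83, 7.38 and 4.25 (-3.68, SE 0.31). These subunits are neighbours at the gate of the ring, where it opens to take up DNA. MCM7, the subunit with the highest level, had 151, 172 and 189 RPKM in the empty vector and 6.10, 8.49 and 4.39 in the hPRM1-labelled libraries, and MCM6, whose upstream sequence is shown above, had 43.2, 64.7 and 50.5 against 0.196, 0.477 and 0.439. Among the tested subunits MCM6 changed most with a pseudocount of 0.1 (-6.85) and by the log2 ratio of mean RPKM (-7.155). At most 4.0, 7.0 and 8.0 reads stood behind its hPRM1-labelled values. MCM4 did not pass the filter. It was listed at 34.7, 58.9 and 0 RPKM in the empty vector, at 0 in every hPRM1-labelled library and at 139, 0 and 34.9 in hPRM2, so that a value of 0 also occurred beside high values within 1 group.

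All 8 helicase activation genes were called lower. CDC45, a part of the running helicase, was at 60.3, 125 and 145 RPKM in the empty vector and at 0, 0.258 and 0.133 in the hPRM1-labelled libraries (-6.53, SE 0.36, adjusted p = 1.1e-05). CDC7, the kinase that triggers origin firing, showed the smallest change of this group on log2(RPKM + 1), from 11.4, 15.04 and 11.5 RPKM to 0.233, 0.162 and 0.0655 (-3.56, SE 0.22). Even there, no hPRM1-labelled library reached 1 RPKM. DBF4, the activating subunit of CDC7, had 0.420, 2.80 and 2.90 RPKM in these libraries against 61.1, 87.2 and 28.6 in the empty vector. It changed least of the group with a pseudocount of 0.1 (-5.02) and by the log2 ratio of mean RPKM (-4.85), so the low level of CDC7 decided its place.

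Each of the 9 polymerase and primase genes was called lower, with a median of -3.81. POLE2, the second subunit of polymerase epsilon, was listed at 0 in all 3 hPRM1-labelled libraries and at 67.2, 80.3 and 85.1 RPKM in the empty vector, and no fold is given for it. POLD3, an accessory subunit of polymerase delta, changed least, from 34.5, 19.4 and 12.4 RPKM to 2.38, 2.75 and 2.38 (-2.61, SE 0.37), and was not called when all 9 libraries were fitted together (adjusted p = 0.051, with a range of 0.00023 to 0.0974 over all alternatives). Subunits of the same polymerase therefore stood at different distances from the empty vector, with POLE, the catalytic subunit of polymerase epsilon, still at 2.06, 2.48 and 2.37 RPKM (23.9, 32.4 and 26.3 in the empty vector). POLD2, a delta subunit with the highest level of the group, had 445, 481 and 559 RPKM in the empty vector and 24.7, 25.5 and 33.8 in the hPRM1-labelled libraries (-4.11, SE 0.19). PRIM2, the large primase subunit and the lowest of the group, had 17.3, 9.82 and 18.9 RPKM against 1.47, 1.58 and 1.35.

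The clamp and all 5 clamp loader subunits were called lower. PCNA, the ring that tethers polymerases to DNA, was the most abundant gene of the group in the empty vector. On log2(RPKM + 1) it also had the largest change, from 165, 191 and 192 RPKM to 2.34, 3.91 and 2.27 (-5.60, SE 0.23, adjusted p = 4.5e-06). RFC3 had the largest change with a pseudocount of 0.1 (-7.02) and by the log2 ratio of mean RPKM (-7.37). Its values went from 47.9, 50.1 and 52.2 RPKM to 0.159, 0.392 and 0.356. At most 2.0, 3.6 and 4.0 reads stood behind the latter, so the place of RFC3 is uncertain. RFC1, the large subunit of the loader, changed least, from 94.7, 181 and 89.7 RPKM to 9.60, 5.20 and 7.17 (-3.84, SE 0.35). RFC4, another loader subunit and the lowest of the group, had 65.1, 37.1 and 44.3 RPKM in the empty vector and 2.36, 0.276 and 2.42 in the hPRM1-labelled libraries. Reads of 3 PCNA pseudogenes that carry its name could have been shared with PCNA in the authors' counting, which leaves its level uncertain.

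The widest range within 1 group was found among the genes of single strand binding, ligation and topology. TOP2A (ENSG00000131747, chromosome 17, 40388516 to 40417950) was the most abundant of the 49 genes in the empty vector, at 725, 627 and 990 RPKM, and was at 1.02, 1.60 and 0.973 RPKM in the hPRM1-labelled libraries. Its log2 fold change of -8.46 (SE 0.24, adjusted p = 2.5e-06) was the largest of the 48 tested on log2(RPKM + 1). By the log2 ratio of mean RPKM it was -9.35, against -10.2 for CDC6 and -9.725 for CDC45. Both were near 0 in the hPRM1-labelled libraries, with at most 2 reads in any of them. LIG1 (ENSG00000105486, chromosome 19, 48115445 to 48170603), the ligase that seals Okazaki fragments, had the smallest called change, from 28.6, 20.0 and 18.0 RPKM to 4.98, 8.37 and 3.30 (-1.87, SE 0.35, adjusted p = 0.0021). The 2 genes lay at 1.20 and 5.55 RPKM on average in the hPRM1-labelled libraries, in reverse order of their empty vector means of 781 and 22.2. RPA3, the smallest subunit of the single strand binding protein RPA, was at 5.34 RPKM in replicate 1 but at 0.268 and 0.324 in replicates 2 and 3 of the hPRM1-labelled libraries, whereas RPA2 was at 11.0, 7.59 and 11.5 and RPA1 at 4.69, 4.16 and 5.42.

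The 5 genes of deoxynucleotide supply were all called lower, with a median of -5.03. TK1, the thymidine kinase of the salvage pathway, changed most, from 67.8, 51.4 and 61.0 RPKM to 0.248, 0.689 and 0.139 (-5.50, SE 0.24). DUT, the enzyme that removes dUTP, changed least, from 172, 198 and 111 RPKM to 26.0, 28.9 and 22.4 (-2.56, SE 0.26), and it was one of only 2 of the 49 genes, with POLD2, that stayed above 20 RPKM in every hPRM1-labelled library. DUT has 8 named pseudogenes, so its reads may be split or shared. RRM1, the large subunit of ribonucleotide reductase, had 226, 278 and 261 RPKM in the empty vector and 8.004, 7.41 and 5.12 in the hPRM1-labelled libraries, and RRM2, the small subunit, had 48.3, 33.1 and 40.3 against 0.282, 0.236 and 0.507.

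The size of these differences depended on how the libraries were scaled. RPKM divides by the library total, to which globin genes add in the hPRM1-labelled libraries. There HBA2 stood at 1146420 to 1295700 RPKM and HBB at 765727 to 892449 (0 to 18.0 and 0 in the empty vector). Reads on such genes lower the RPKM of all others and are part of the reads on genes given above. How much of the differences this accounts for was not tested. Median-of-ratios rescaling, which sets the middle gene of each library equal, moved the median over all genes tested from -1.72 to -0.12 and that of the replication genes from -4.29 to -2.70. After it, 40 of the 48 replication genes were called lower and 0 higher, whereas 28.9% of all genes tested were called lower and 28.8% higher. With quantile normalization 43 were called lower (34.4% of all genes), at a median of -2.91 against -0.38 over all genes. The 8 genes not called after median-of-ratios rescaling were ORC2, which was not called before it either, and ORC4, PRIM2, POLD3, RPA1, RPA2, LIG1 and DUT. For ORC2 and LIG1 the direction turned, to 0.21 and 0.10, and both were again below 0 with quantile normalization (-0.06 and -0.24). TOP2A remained the most changed gene at -6.67, followed by CDC45 at -5.28 and POLE2, which was at 0.

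**Figure D2:**
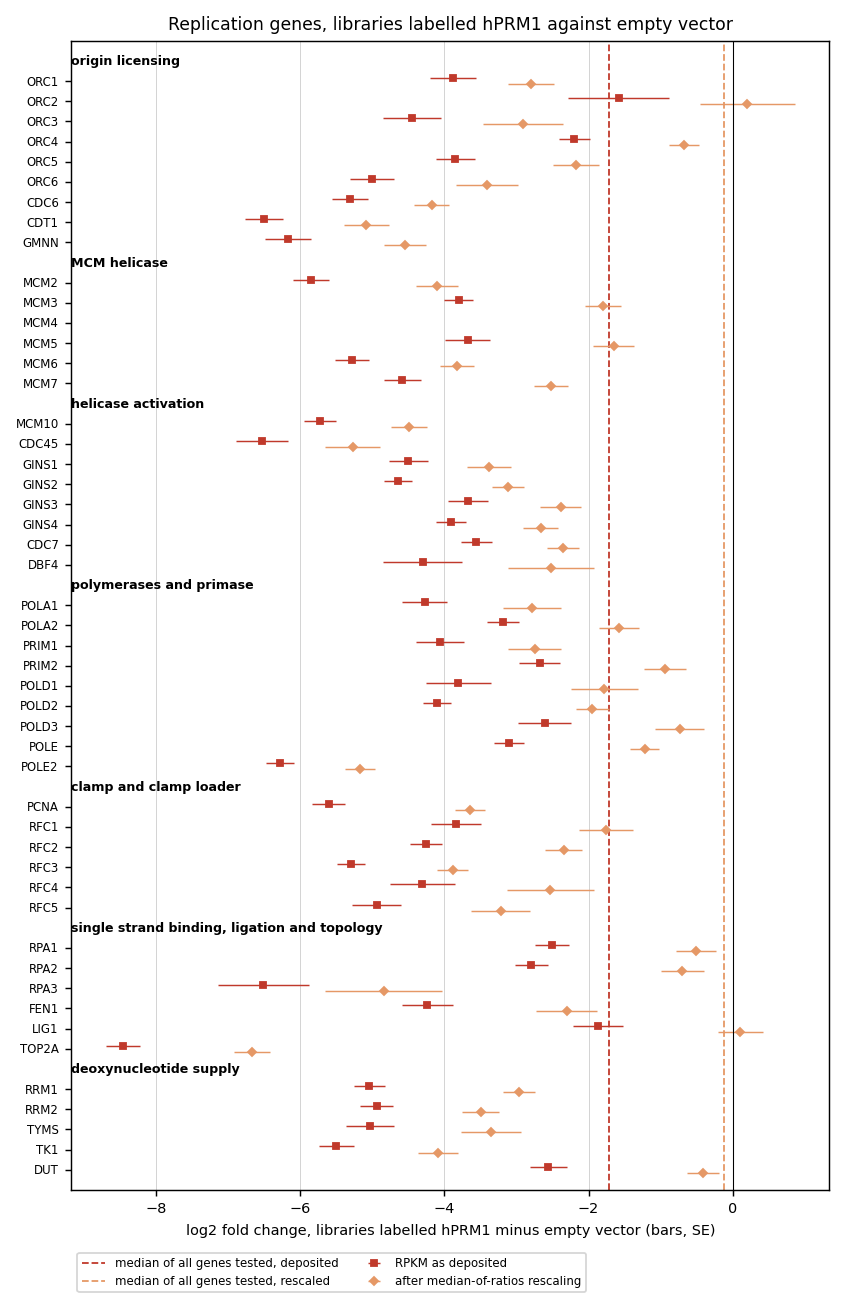
Log2 fold change of each replication gene between the hPRM1-labelled libraries and the empty vector (points, with SE), from the RPKM as deposited (squares) and after median-of-ratios rescaling (diamonds), with the median of all genes tested as dashed lines at -1.72 and -0.12. TOP2A lies at the far left on both scales, ORC2 and LIG1 cross 0 after rescaling, MCM4 was not tested, and the position of POLE2 depends on the pseudocount because it was listed at 0 in the hPRM1-labelled libraries.

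The make-up of the replication genes was also compared, on a measure that no single scaling factor of a library can change. For it, the share of each gene in the summed RPKM of the 49 genes was taken within each library. TOP2A held 17.5%, 14.3% and 21.5% of that sum in the empty vector and 0.675%, 1.02% and 0.724% in the hPRM1-labelled libraries. DUT held 4.14%, 4.51% and 2.42% in the empty vector and 17.2%, 18.4% and 16.7% in the hPRM1-labelled libraries, and RPA2 held 1.73%, 1.499% and 1.90% against 7.28%, 4.84% and 8.53%. The groups did not overlap for these 3 genes, which were named after their values were seen. This was not particular to them. CDT1 (2.29% to 3.29% against 0.0506% to 0.333%) and RPA1 (0.643% to 0.889% against 2.65% to 4.04%) are further examples. By role, helicase activation genes made up 7.53% ± 0.68 (SD, n = 3) of the sum in the empty vector and 2.30% ± 1.11 in the hPRM1-labelled libraries, whereas deoxynucleotide supply made up 13.3% ± 1.65 and 23.2% ± 1.80, and polymerases and primase 18.2% ± 0.68 and 28.8% ± 3.47. Without DUT, the other deoxynucleotide genes held 9.62% ± 0.56 of the sum in the empty vector and 5.79% ± 1.16 in the hPRM1-labelled libraries, so that 1 gene carried the higher share of its group. Among polymerases and primase, POLD2 alone held 11.3% ± 0.76 and 19.2% ± 5.12, the larger part of the group's share in both. The MCM helicase held 11.8% ± 0.69 and 11.3% ± 1.38, a difference smaller than the spread between libraries. These shares are given as a description, since a higher share of 1 gene lowers those of the others, and RPKM of a 3′ end assay divides by gene length although 3′ reads do not grow with it.

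Beside these values, the 10 mitotic markers summed to 1214 to 1557 RPKM in the empty vector, 4.03 to 5.87 in the hPRM1-labelled libraries and 677 to 966 in hPRM2, with none of them at 0 in all libraries of a group. The sums of the HEK293T and blood cell markers given above moved in the same libraries as the replication genes, and their part in the result was not tested.

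Further genes of the same processes were taken from a list of 32 additional replication factors and 11 additional deoxynucleotide genes. Of the 32 replication factors, all tested, 30 were called lower and 1 higher in the hPRM1-labelled libraries. Of the 10 tested deoxynucleotide genes 9 were called lower and 1 higher, beside 62.5% and 12.9% of all genes tested. After median-of-ratios rescaling 20 and 4 were called lower and 2 and 1 higher (28.9% and 28.8% of all genes). Large falls were those of NME1, a nucleoside diphosphate kinase (272, 317 and 364 RPKM against 2.004, 2.41 and 0.832, log2 fold change -6.90) and TIPIN, a fork protection factor (71.2, 71.2 and 46.7 against 0.392, 0.705 and 1.04, -5.22). Without rescaling, the only 2 genes called higher were TK2, the mitochondrial thymidine kinase, from 0.949, 1.40 and 0.463 to 3.20, 9.55 and 2.96 RPKM (1.56, SE 0.44), and RNASEH2B, a subunit of ribonuclease H2, from 0.983, 0.973 and 0.206 to 2.40, 3.01 and 2.24 (1.08, SE 0.27). RNASEH2B passed the filter only through the group in which it was higher, and it was not tested once any of those 3 libraries was left out. Neither was called with a pseudocount of 5 (0.73 and 0.40), TK2 was not called in a fit of all 9 libraries, and RNASEH2B was not called without replicate 3 of the empty vector (0.84). NME1 and its near-identical neighbour NME2 may share reads. TK2 reached 1 RPKM in only 1 empty vector library, so it too passed the filter through the group in which it was higher. Its adjusted p in limma ranged up to 0.0851 over the alternatives. The exons of TK2 overlap 1 gene on the same strand and 2 on the opposite strand. The opposite directions of TK1, the thymidine kinase of the cytosol, and TK2 are therefore given as values only. SAMHD1, which degrades deoxynucleotides, was listed at 0 in all 9 libraries. In hPRM2 against the empty vector, 0 of the 31 further replication factors and 0 of the 10 further deoxynucleotide genes tested were called in limma (1.37% of all genes lower and 1.36% higher). At an unadjusted p below 0.05 there were 6 and 3, beside 25.5% of all genes tested.

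The second comparison set hPRM2 against the empty vector. Of the 49 replication genes, all of which passed the filter, 0 were called lower and 0 higher by limma, whereas 1.37% of 13126 genes were called lower and 1.36% higher. At an unadjusted p below 0.05 there were 14 replication genes, all with a negative value, and 25.5% of all genes tested. With the test of the study's methods, run gene by gene, 0 were called as well (0.0762% of all genes lower and 0.0% higher). The log2 fold change was negative for 42 genes and positive for 7 (36 and 13 after median-of-ratios rescaling), with a median of -1.06 against -0.72 over all genes tested, and -0.54 against -0.25 after median-of-ratios rescaling. Every hPRM2 library lay below every empty vector library for 23 of the 49 genes, compared with 29.9% of all genes, and every one above for 0 (6.01% of all genes). The 14 genes were ORC5, CDT1, MCM2, MCM3, MCM5, MCM6, POLA2, POLD1, PCNA, RFC3, RFC5, RPA2, TK1 and DUT, named after their values were seen. Their share of the 49 genes is near that of all genes and is not read as a result about them.

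The number of calls in hPRM2 rested on replicate 1. Without that library 14 replication genes were called lower and 1 higher, compared with 12.3% and 5.3% of the 12825 genes then tested. The library left out was the deepest of hPRM2, at 2650000 estimated reads on genes against 1270000 and 1610000. At most 100 reads stood behind 16 of the 49 genes in replicate 1, and behind 31 and 20 in replicates 2 and 3. A fit of all 9 libraries, which shares the spread of the other groups, called 6 lower (10.6% of all genes). The 14 genes called without replicate 1 were ORC3, ORC5, CDT1, MCM2, MCM3, MCM5, MCM6, PCNA, RFC3, RFC4, RPA2, FEN1, TOP2A and TK1. PCNA, for example, was at 146 RPKM in replicate 1 of hPRM2 but at 30.2 and 63.1 in the other 2 libraries (empty vector, 165 to 192), with a log2 fold change of -1.47 (SE 0.56, adjusted p = 0.168) that became -2.04 (SE 0.35, adjusted p = 0.0257) without replicate 1. Over all alternatives the adjusted p of PCNA ranged from 0.0257 to 0.429. TOP2A was at 943, 175 and 256 RPKM, so that replicate 1 lay within the empty vector range of 627 to 990 and the other 2 libraries below it. Over the 49 genes, replicate 1 had the highest of the 3 hPRM2 values for 26 and the lowest for 15, replicate 2 the highest for 5 and the lowest for 29, and replicate 3 the highest for 18 and the lowest for 5.

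The largest positive value in hPRM2 was that of GINS3 (ENSG00000181938, chromosome 16, 58295080 to 58406144), a subunit of the GINS complex. It was at 18.5, 16.5 and 9.99 RPKM in the empty vector and at 7.08, 388 and 742 in hPRM2, with a log2 fold change of 3.09 (SE 1.58, adjusted p = 0.262). Replicate 1 thus lay below the empty vector and the other 2 libraries far above it. Without replicate 1 the gene was called higher (5.11, SE 0.41, adjusted p = 0.00355, with a range of 0.00355 to 0.489 over all alternatives). GINS1, GINS2 and GINS4, the partners of GINS3 in the same complex, were at 8.30, 5.24 and 16.2, at 28.8, 16.9 and 22.8 and at 3.88, 6.79 and 15.3 RPKM in hPRM2. In the hPRM1-labelled libraries all 4 were under 1 RPKM. The exons of GINS3 overlap a gene on the opposite strand, and the use of strand in the counting is not given in the sources used here.

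PRIM1, the catalytic primase subunit, had the second largest positive value (43.3, 23.1 and 52.5 RPKM against 21.8, 28.5 and 13.9, log2 fold change 0.84, SE 0.49), and CDC6 the third (14.7, 131 and 81.4 against 41.5, 51.4 and 30.0, 0.44, SE 0.79). The exons of PRIM1 overlap those of NACA on the same strand, so its reads are uncertain. Neither gene was called, both stayed positive after median-of-ratios rescaling, and the value of CDC6 turned to -0.19 without replicate 2 of hPRM2. The largest negative values belonged to RFC5, a clamp loader subunit (0, 8.21 and 32.3 RPKM against 63.4, 62.4 and 73.1, -3.32, SE 1.18), to POLA2, the second subunit of polymerase alpha (0, 2.47 and 9.61 against 17.3, 13.8 and 17.02, -2.35, SE 0.89), and to ORC5 (2.65, 10.6 and 4.73 against 25.8, 30.7 and 28.9, -2.24, SE 0.58). All 3 hPRM2 libraries lay below the empty vector for these genes, and the adjusted p values were 0.149, 0.165 and 0.0836.

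Several genes differed strongly between hPRM2 libraries. In 9 of the 49, chosen after their values were seen, replicate 1 lay at least 2 log2 units from both other libraries. It was the lower one for CDC6, GINS3, DBF4, POLD3, POLE2, RFC5 and LIG1 and the higher one for ORC3 and CDC45. POLE2 was at 0, 32.5 and 246 RPKM in hPRM2 and DBF4 at 0.722, 37.7 and 65.2. CDC45, at 424, 64.2 and 84.1 RPKM, and ORC3, at 89.7, 0 and 9.01, showed the opposite order. For these 9 genes 1 or 2 libraries decide the fitted hPRM2 values, those given here for GINS3, CDC6, RFC5 and CDC45 included.

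**Figure D3:**
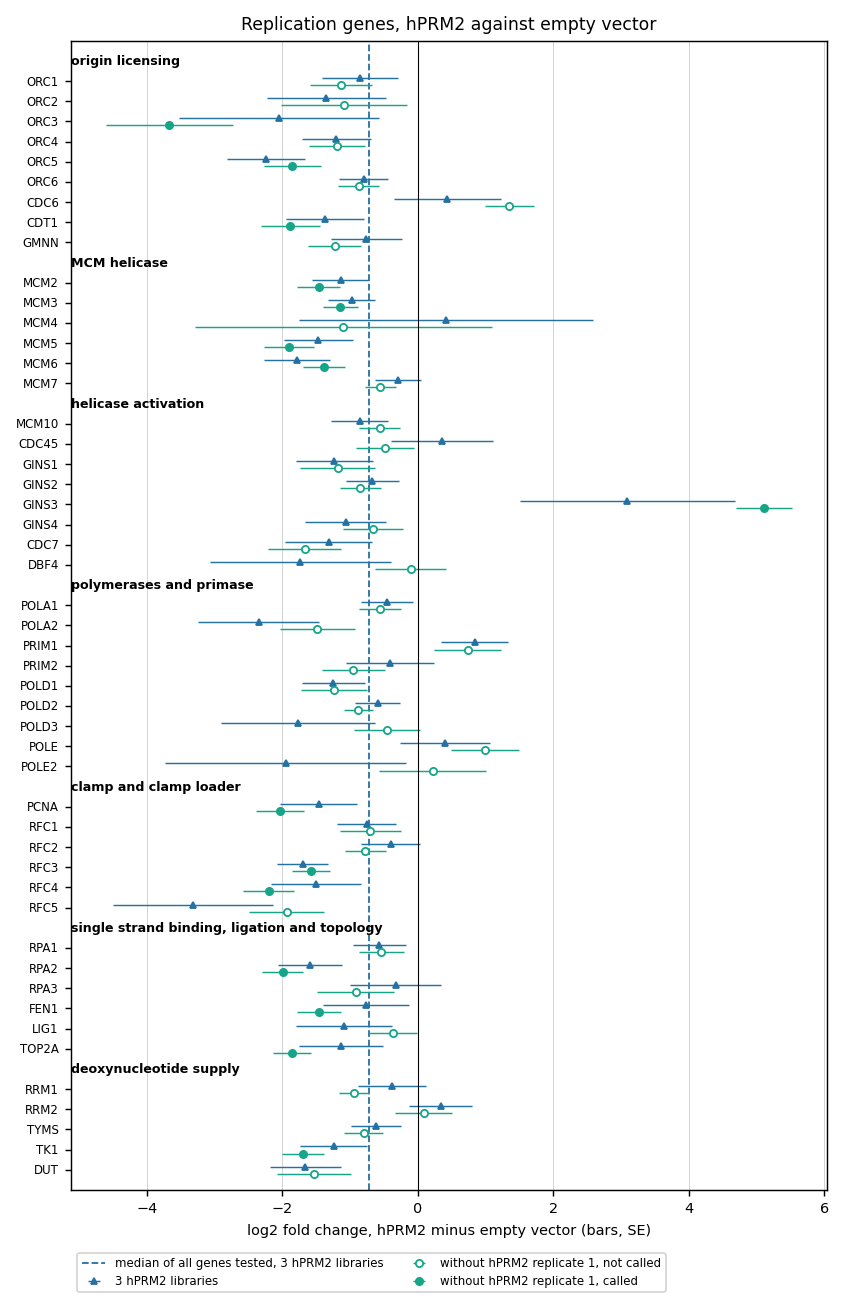
Log2 fold change of each replication gene between hPRM2 and the empty vector (points, with SE) with all 3 hPRM2 libraries (triangles) and without hPRM2 replicate 1 (circles, filled where called), with the median of all genes tested with 3 libraries as a dashed line at -0.72. Most genes lie between 0 and -2 in both, 14 filled circles lie below 0, and GINS3 stands alone to the right at 3.09 and 5.11.

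The third comparison set the hPRM1-labelled libraries against hPRM2. Of 47 replication genes tested, 37 were called lower in the hPRM1-labelled libraries and 0 higher (37.0% and 16.0% of 11756 genes), with a median log2 fold change of -3.50 against -0.97 over all genes. After median-of-ratios rescaling 28 were called lower (18.3% of all genes), at a median of -2.11 against 0.49. The direction then turned to positive for 7 genes, ORC2 (1.16), DUT (0.98), LIG1 (0.85), RPA2 (0.62), POLD3 (0.43), ORC4 (0.16) and POLA2 (0.13). The gene by gene test of the study's methods called 1 (0.876% of all genes). MCM4 and POLE2 did not pass the filter here. TOP2A showed the largest negative value, with 1.02, 1.60 and 0.973 RPKM in the hPRM1-labelled libraries against 943, 175 and 256 in hPRM2 (-7.33, SE 0.66, adjusted p = 0.00037), followed by CDC45 (-6.89, SE 0.75) and GINS3 (-6.77, SE 1.67). For 39 of the 47 genes tested, each hPRM1-labelled library lay below each hPRM2 library (43.1% of all genes). The 10 genes not called were ORC2, ORC3, ORC4, DBF4, POLA2, POLD3, RFC5, RPA2, LIG1 and DUT. Leaving out replicate 2 or 3 of hPRM2 left 30 genes to test, of which 23 and 20 were called lower (32.4% and 29.3% of all genes then tested). Both this comparison and the previous 2 share libraries, so their values are not independent.

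Genes with and without an E2F element had overlapping ranges of change. In the hPRM1-labelled libraries the 16 genes with an element in the upstream 250 bases had a median log2 fold change of -4.52 (range -6.50 to -1.87), and the 27 genes with a promoter but without one had -4.30 (range -8.46 to -1.58). In hPRM2 the medians were -1.20 and -0.85, with ranges of -2.35 to 0.40 and -3.32 to 3.09. The 25 genes with CCAAT had -4.64 and the 18 without it -4.05 in the hPRM1-labelled libraries, and -0.76 and -1.28 in hPRM2, so the order of these medians was opposite in the 2 comparisons. These letters are a description of the sequence, and no binding was measured.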

How the data were processed

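RNA was measured in 9 libraries labelled as HEK293T cells, 3 each labelled empty vector, hPRM1 and hPRM2, and grouped by these labels. Markers of the line were nearly absent with the hPRM1 label. The authors counted reads on genes with nf-core/rnaseq (FastQC, Cutadapt, STAR and Salmon, versions not given in the sources used here, hg38 per the labels), removed mitochondrial genes and divided by library total and gene length. The deposited RPKM values of 57338 genes were used without change, and RPKM hold no read totals. Reads on genes were therefore estimated from the spacing of low values of 13863 genes with a single GENCODE 29 transcript, taking 250 bases off each length (1991 values fell on the steps, and 156 when no bases were taken off). No error was worked out for these estimates, and whole reads were not recovered, so no count test was run.

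Comparisons used limma 3.58.1 in R 4.3.3 on log2(RPKM + 1), on which changes of low genes are understated, with a pseudocount of 1, a filter of at least 1 RPKM in 3 of 6 libraries, trended robust eBayes, and Benjamini-Hochberg adjustment over all genes tested. Calls needed an adjusted p of at most 0.05 and a 2-fold change. The procedure was also run on simulated normal values in which few genes changed, all of them well expressed in the reference group. Such data do not cover genes with few reads or a shift of most genes. Python 3.11.15, pandas 2.3.3 and matplotlib 3.10.9 did the rest. The members, role groups, marker lists and tests were chosen with earlier results of these data known. Genes named are, in each role group, those with the largest and smallest change with the hPRM1 label and the highest and lowest empty vector mean, those not called or turning direction there, the 3 largest rises and falls in hPRM2, and the 3 largest called rises and falls of the further genes, of which 1 is not reported here. Other genes were named after their values were seen. Also tried were pseudocounts of 0.1 and 5, dropping the filter or raising it to 10 RPKM, median-of-ratios and quantile scaling, all 9 libraries in 1 fit, a block for replicate number, each library left out in turn, calls without a fold limit, and the study's gene by gene test. That test was rerun on RPKM with unequal variances and the filter and fold limit used here, so its calls are not those of the study. Of the 49 genes, 6 have exons that overlap a gene on the same strand and 18 on the opposite strand, and 10 have named pseudogenes, so their reads may be shared. DNA methylation and imaging were not analysed here.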

Additional observations from a re-analysis of the deposited data

How the results depend on the processing

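For the hPRM1-labelled libraries against the empty vector, the number of replication genes called lower was 27 with the gene by gene test of the study and 30 to 48 when 1 library was left out, with 0 called higher in each. The count of 30 came from leaving out an empty vector library, after which 31 genes passed the filter. The median log2 fold change was -5.71 and -3.08 with pseudocounts of 0.1 and 5, -2.70 with median-of-ratios rescaling, -2.91 with quantile normalization and between -4.38 and -3.96 when 1 library was left out. For hPRM2 against the empty vector the counts called lower were 6 in the fit of all 9 libraries and 0 to 14 when 1 library was left out, with 0 to 1 called higher, and the median lay between -1.09 and -0.79. For the hPRM1-labelled libraries against hPRM2 the count called lower was 1 with the gene by gene test of the study and 20 to 33 when 1 library was left out, and the median was -4.48 and -2.24 with pseudocounts of 0.1 and 5, -4.17 with a minimum of 10 RPKM, -2.11 with median-of-ratios rescaling, -2.39 with quantile normalization and -3.52 to -2.78 when 1 library was left out. The cause of these changes was not tested where no filter explains them. In some role groups the gene with the largest or smallest change also depended on the pseudocount. In the hPRM1-labelled libraries against hPRM2, directions turned with median-of-ratios rescaling for the 7 genes given with that comparison. Against the empty vector, directions turned with it for ORC2 (0.21) and LIG1 (0.10) with the hPRM1 label and in hPRM2 for 6 genes, MCM7 (0.27), RPA3 (0.23), RRM1 (0.17), RFC2 (0.15), PRIM2 (0.10) and POLA1 (0.08). Among the genes named by rule they also turned in hPRM2 for MCM4 without empty vector replicate 3 (-1.43) or hPRM2 replicates 1 (-1.10) or 3 (-0.12; range over libraries left out -1.43 to 2.46), for CDC45 without empty vector replicate 1 (-0.03) or hPRM2 replicate 1 (-0.48; range -0.48 to 0.87), for POLE2 without hPRM2 replicate 1 (0.22; range -3.755 to 0.22), and without hPRM2 replicate 2 for PRIM2 (0.042; range -0.95 to 0.042) and CDC6 (-0.19; range -0.19 to 1.35). None of these hPRM2 values was called.

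Samples that share a replicate number did not deviate together, with correlations of -0.08 to 0.08 across genes. No shared effect of the number was seen, but such correlations cannot exclude that samples of 1 number were handled together. With a replicate block 48, 0 and 36 genes were called lower in the 3 comparisons (47, 0 and 37 without it), at medians of -4.29, -1.06 and -3.50. At most 10 reads stood behind 21 to 23 of the 49 genes in a library with the hPRM1 label and behind 0 to 5 in hPRM2, which limits the precision of their values.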
